A study of Rattus norvegicus with 16 samples.

Results

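The genes described here rose at least 3-fold between day 3 and day 14 post-implantation at both the adhesive and the non-adhesive implant on the rat abdominal wall. They were chosen from the counts themselves. Counts were scaled to a library total of 1000000 (CPM). A member had a day 14 mean of at least 5 CPM in each implant group, a day 14 mean at least 3 times the day 3 mean of the same implant, and all 8 day 14 libraries above all 8 day 3 libraries. Genes left out beforehand were the mitochondrial chromosome, a stretch of chromosome 20, a stretch of chromosome 10 and 9 genes by name. Of 32552 genes in the files, 43 met these terms, or 0.449% of the 9585 genes that reached 5 CPM in both day 14 groups. The rise itself, and the gap between the days, is therefore a description of the choice and is given with no test. The difference between the implants was not used by the choice and is tested below.

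The libraries fell into 4 groups of 4, all of abdominal wall from Sprague Dawley rats labelled female and 12 weeks of age. Each group carried either an adhesive implant, a polyurethane mock device with a poly(acrylic acid) N-hydroxysuccinimide ester and poly(vinyl alcohol) adhesive layer, or the same implant swollen in phosphate-buffered saline to remove its adhesion. The non-adhesive implant was held with sutures and the adhesive implant was pressed on without them, so sutures and the lack of adhesion cannot be told apart in any comparison of the implants. No unoperated tissue was used here, and the sources do not say that each library came from a separate animal, so the p-values measure the spread between libraries only.

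The abdominal wall is made of sheets of skeletal muscle under a thin peritoneal lining. In muscle, nerve impulses release calcium, which starts contraction and also switches on phosphorylase kinase, the enzyme that turns on the breakdown of stored glycogen. Damaged fibres are cleared and rebuilt by muscle stem cells, and the genes of mature fibres come on late in that repair. Only 5 of the 43 members could be paired with a gene symbol, and the other 38 are given by their place in the genome, without a guess at their names. Phkg1 encodes the catalytic subunit of the muscle form of phosphorylase kinase. Itgb1bp2 encodes melusin, a protein of striated muscle that binds the tail of integrin beta 1. Map2k6 encodes a kinase that activates p38 MAP kinases. P2rx6 encodes a subunit of channels opened by extracellular ATP, and Adam11 a surface protein of the ADAM family that lacks protease activity.

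RefSeq promoter sequences (GRCr8, 250 bases before to 50 bases after the start used for a gene) were held for 4 of the 5 named members, all but Adam11. The short motif CAGCTG, an E-box of the kind bound by muscle bHLH factors, was found in 2 of the 4, against 15.1% of all 33469 promoters of that length. The stretches that hold it are shown with the motif in capitals, from chrX:70612461-70612490 (plus strand) for Itgb1bp2, where it spans bases -48 to -43 from the start, and from chr11:96954207-96954236 (minus strand) for P2rx6, where it spans bases -21 to -16.
Itgb1bp2: taaagatagaaaCAGCTGgcccttctaagc
P2rx6: ggcaggctacatCAGCTGgggtttgggact
The motif CAGCTG is its own reverse complement, so both strands give the same matches. For Itgb1bp2 and P2rx6, 0 bases of the promoter lie before the first annotated transcript. Both motifs thus lie inside the annotated gene and not ahead of it. For Map2k6, 250 bases lie before the first annotated transcript, and for Phkg1, 99 bases. These stretches of the other 2 named members hold none of the motifs searched. They are shown from chr10:95872497-95872746 (plus strand) for Map2k6 and chr12:32474827-32474925 (plus strand) for Phkg1.
Map2k6: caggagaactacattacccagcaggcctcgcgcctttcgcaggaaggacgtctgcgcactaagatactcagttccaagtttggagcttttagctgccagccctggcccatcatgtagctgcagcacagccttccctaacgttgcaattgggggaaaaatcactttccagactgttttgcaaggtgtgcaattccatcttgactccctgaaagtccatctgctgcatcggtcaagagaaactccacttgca
Phkg1: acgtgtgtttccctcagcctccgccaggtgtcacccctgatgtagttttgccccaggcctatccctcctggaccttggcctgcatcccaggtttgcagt
Other motifs searched on both strands had no match in the 4 member promoters. They were AAGGTCA (4.61% of all promoters), TATAAA (14.2%), the MEF2 consensus (3.29%) and the CArG box of serum response factor (1.64%). With 4 promoters these shares describe the sequences and nothing more.

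Library totals lay between 18616084 and 24858976 counts on day 3 and between 13852126 and 16801635 on day 14, so every day 14 library was shallower than every day 3 library. A batch that follows the day cannot be told apart from the day. The non-adhesive day 14 library of replicate 4 stood apart from the other 3 of its group. Its 10 most abundant genes took 28.7% of its counts, against 18.1% to 19.1% in the other 3 and 20.3% to 26.8% at the adhesive implant on day 14. Its TMM scaling factor was 0.619, against 0.988 to 1.03 in the other 3 and 0.668 to 0.917 at the adhesive implant. On these measures it was nearer the adhesive libraries than its own group. Day 14 differences between the implants for the members are given with and without it.

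The 43 members together took a growing share of the libraries. Their summed counts were 1.21% to 2.55% of a library at the adhesive implant and 0.925% to 2.93% at the non-adhesive implant on day 3. On day 14 the share was 6.38% to 8.34% at the adhesive implant. At the non-adhesive implant it was 5.40%, 6.03% and 6.08% in 3 libraries and 10.2% in replicate 4. The adhesive libraries of day 14 all lay above those 3 and below replicate 4. In bulk tissue, more cells of a type and more RNA per cell cannot be told apart.

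**Figure D1:**
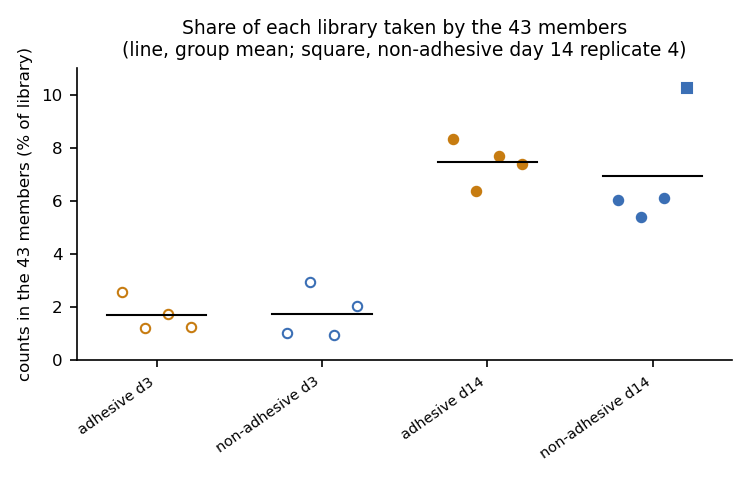
Counts in the 43 members as a percent of each library's counts (y axis, linear from 0), by implant and day (d3, day 3; d14, day 14; x axis), 1 point per library with the group mean as a line and the non-adhesive day 14 library of replicate 4 as a square. The 8 day 14 libraries lie between 5.40% and 10.2% and the 8 day 3 libraries between 0.925% and 2.93%, as the choice of members requires of each gene.

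With all 16 libraries the rises at both implants were close in the median. The median rise, day 14 mean over day 3 mean, was 4.73-fold at the adhesive implant and 4.52-fold at the non-adhesive implant, with 20 members rising more at the adhesive and 23 more at the non-adhesive implant. In 11 members the smaller of both rises was over 5-fold. On the edgeR scale, which allows for the composition of the libraries, 36 members at the adhesive and 40 at the non-adhesive implant were called higher on day 14, beside 4.39% and 5.32% of all 14601 genes tested, and none was called lower, beside 3.73% and 3.75%. The members were chosen on this contrast and these counts carry no weight.

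**Figure D2:**
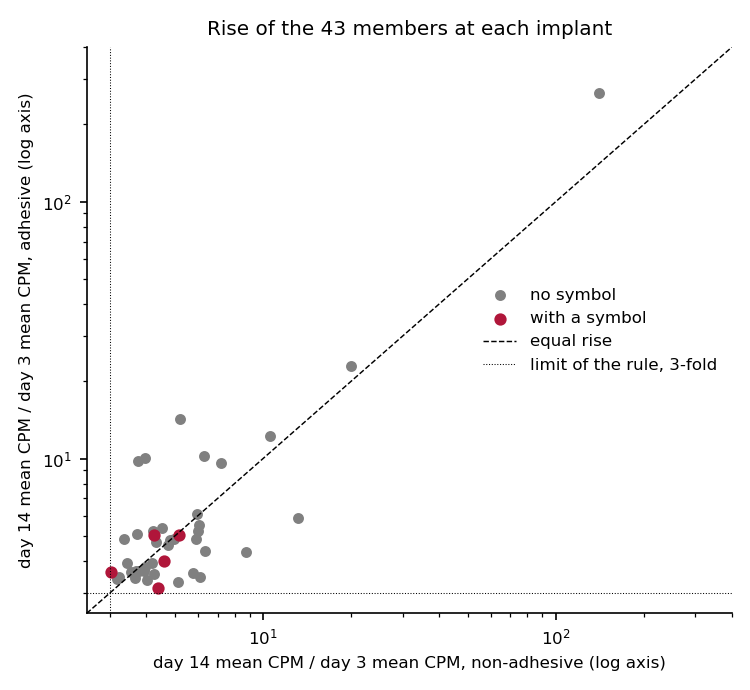
Rise of each of the 43 members (day 14 mean CPM over day 3 mean CPM; both axes logarithmic) at the non-adhesive (x axis) and the adhesive implant (y axis), with the 5 named members in red, equal rise as a dashed line and the 3-fold limit of the rule as dotted lines. Most members lie near the line of equal rise between 3-fold and 10-fold, and 1 member, on chromosome 6, lies far out at 265-fold and 141-fold.

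Phkg1, the phosphorylase kinase subunit (chr12:30450316-30464352 in the coordinates of the files, plus strand), was the most abundant of the named members, also per kilobase of exon. On day 3 its adhesive libraries held 71.1, 22.3, 27.9 and 28.5 CPM and its non-adhesive libraries 18.9, 56.2, 14.3 and 50.5 CPM. On day 14 they held 194, 123, 97.8 and 182 CPM at the adhesive implant and 172, 132, 151 and 187 CPM at the non-adhesive implant. The implant groups overlapped on both days. The mean rose 3.99-fold at the adhesive implant (from 37.5 ± 22.6 to 149 ± 46.3 CPM, SD, n = 4) and 4.58-fold at the non-adhesive implant (from 34.97 ± 21.4 to 160.3 ± 24.2 CPM).

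Itgb1bp2, the melusin gene (chrX:71342775-71347619, plus strand), was at 31.3, 14.2, 18.8 and 35.1 CPM at the adhesive and 7.12, 30.0, 3.54 and 22.6 CPM at the non-adhesive implant on day 3. On day 14 it was at 76.8, 66.2, 89.2 and 78.4 CPM at the adhesive implant. The non-adhesive libraries were at 65.9, 51.5, 55.0 and 103.9 CPM. All but replicate 4 of the non-adhesive libraries lay below the lowest adhesive library on day 14. The rise was 3.13-fold and 4.37-fold, the smaller of which was close to the limit of the rule. An exon of Itgb1bp2 overlaps an exon of a gene on the opposite strand, and whether counting used the strand is not stated in the sources used here.

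Map2k6, the p38 MAP kinase kinase gene (chr10:98706960-98823287, plus strand), was at 19.4, 5.05, 6.71 and 5.32 CPM at the adhesive implant and 6.15, 16.1, 4.16 and 12.3 CPM at the non-adhesive implant on day 3. Its day 14 libraries reached 38.4, 29.5, 27.2 and 37.2 CPM at the adhesive implant and 24.4, 31.1, 25.3 and 36.1 CPM at the non-adhesive implant. The implants overlapped on both days. Its rise at the non-adhesive implant, 3.02-fold, was the lowest of any member, and at the adhesive implant it was 3.63-fold.

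P2rx6, the ATP-gated channel subunit gene (chr11:87435185-87445219, plus strand), started from the lowest level of the named members. Day 3 gave 10.7, 0.483, 1.72 and 1.97 CPM at the adhesive implant and 1.49, 7.23, 0.814 and 5.67 CPM at the non-adhesive implant. By day 14 the adhesive libraries were at 20.6, 16.2, 18.3 and 19.8 CPM and the non-adhesive libraries at 17.6, 16.2, 17.3 and 27.3 CPM. The libraries of a group were far apart on day 3 and close together on day 14. The mean rose 5.04-fold and 5.15-fold.

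Adam11, the ADAM family gene (chr10:90731148-90749217, plus strand), was at 28.7, 1.61, 3.23 and 1.52 CPM at the adhesive implant and 2.94, 30.7, 1.68 and 8.53 CPM at the non-adhesive implant on day 3. One library of each implant was thus already near the day 14 level. On day 14 it was at 50.7, 38.5, 43.8 and 44.8 CPM at the adhesive and 44.5, 31.8, 37.1 and 72.3 CPM at the non-adhesive implant. Its lowest day 14 value was 1.04 times its highest day 3 value, so it passed the condition on separate days narrowly.

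**Figure D3:**
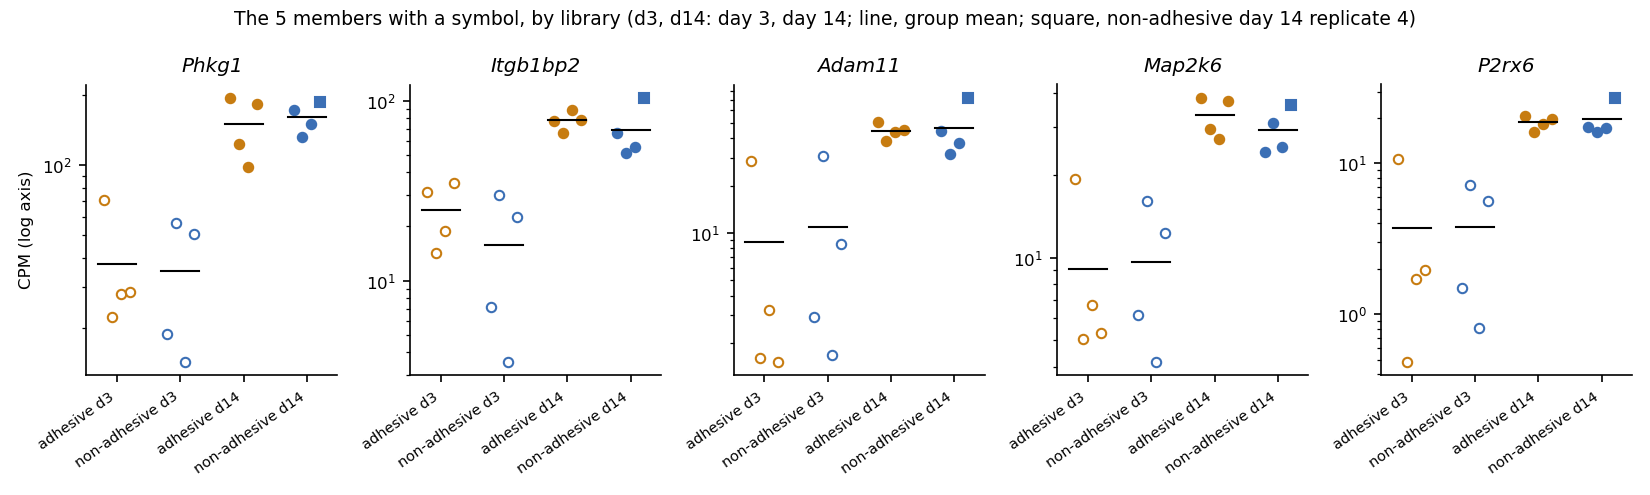
CPM (y axis, logarithmic) of the 5 members with a symbol in each library of the 4 groups (x axis; d3, day 3; d14, day 14), open points for day 3 and filled points for day 14, with the group mean as a line and the non-adhesive day 14 library of replicate 4 as a square. Every day 14 point lies above every day 3 point, as the rule requires, the implants overlap on day 14, and the day 3 points of each gene are spread much more widely than the day 14 points.

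Adam11 lies in a cluster of members on chromosome 10. Another member, at chr10:90746683-90750271 on the minus strand, overlaps an exon of Adam11 on the other strand. Its libraries ran from 0.0479 to 14.1 CPM on day 3 and from 15.6 to 29.7 CPM on day 14. Since reads of both strands may have been counted together, the values of these 2 genes cannot be taken as separate. One more member lies 19284 bases further on, at chr10:90769555-90772638 on the minus strand, and shares no exon with another gene. It was at 12.1, 0.698, 0.908 and 0.492 CPM at the adhesive and 0.805, 5.92, 0.191 and 3.26 CPM at the non-adhesive implant on day 3. On day 14 it was at 18.7, 17.9, 18.1 and 19.2 CPM at the adhesive and 16.7, 14.1, 14.4 and 15.6 CPM at the non-adhesive implant, the narrowest day 14 spread of the members. These were the only 3 members within 100 kb of another. The 43 members lay on 19 chromosomes, with 5 on chromosome 10.

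Most counts of the members came from a few genes without a symbol, singled out here after their values were seen. Mean day 14 levels were over 1000 CPM in 10 members, 100 to 1000 CPM in 12, 10 to 100 CPM in 17 and under 10 CPM in 4. ENSRNOG00000017645 (chr1:198655742-198658583, plus strand) had the highest level, also per kilobase of exon. It was at 5862, 3321, 4327 and 3302 CPM at the adhesive and 2523, 5492, 2521 and 4364 CPM at the non-adhesive implant on day 3. On day 14 the adhesive libraries were at 15396, 15403, 17034 and 13705 CPM, and the non-adhesive libraries at 11723, 11469, 11908 and 23255 CPM. The adhesive libraries again lay above 3 non-adhesive libraries and below replicate 4. Next in CPM were the members at chr8:72814740-72842228 and chr9:73937823-73958480, which rose 3.61-fold and 3.39-fold at the adhesive and 3.54-fold and 3.17-fold at the non-adhesive implant. Members were short genes, with a median exon length of 1534 bases against 2472 bases for all genes at 5 CPM or more. The shortest, of 103 bases at chr3:175779553-175779655, reached 3.64 to 10.1 CPM on day 14.

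Rises far above the median were found in a handful of members. The member at chr7:119429019-119441487 (minus strand) rose 23.0-fold at the adhesive and 20.03-fold at the non-adhesive implant. It went from 83.4 to 448 CPM over the day 3 libraries to 3032 to 7643 CPM over the day 14 libraries, and its lowest day 14 library was 6.77 times its highest day 3 library, the widest gap of the 43. The median of that ratio over the members was 1.502, and in 21 members it was under 1.5. At chr2:88126667-88135410 (minus strand) the adhesive rise was 10.1-fold and the non-adhesive rise 3.94-fold. The day 3 libraries of that gene were at 2057, 398, 766 and 1105 CPM at the adhesive and 965, 5424, 258 and 2684 CPM at the non-adhesive implant, so 2 non-adhesive libraries lay above all adhesive libraries before the rise. The member at chr15:4240203-4252072 (plus strand) rose 14.3-fold and 5.22-fold, with 278 to 447 CPM at the adhesive and 212 to 301 CPM at the non-adhesive implant on day 14. Differences in rise between the implants did not pass the test for any member, as given below.

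Day 3 was the uneven day for these genes. The median SD of log2 CPM within a group was 0.975 on day 3 and 0.335 on day 14 over the members, and it was larger on day 3 in 39 of the 43. Over all genes at 5 CPM or more the same medians were 0.302 and 0.308, and the SD was larger on day 3 in 4071 of 9585. The rule chose the members on these same values, and the spread was not tested. The unevenness followed the libraries. In 33 members the 3 highest day 3 libraries were adhesive replicate 1 and non-adhesive replicates 2 and 4, and 24 members were lowest in non-adhesive replicate 3. The same counts over all genes are not given here. Eno3, the muscle enolase that the rule leaves out by name and that would otherwise be the 44th member, had the same 3 highest libraries on day 3, at 2637, 2382 and 1750 CPM against 617 to 1394 CPM in the other 5. The muscle gene Mb, also left out by name, shared this order only in part. Its non-adhesive replicates 2 and 4 were highest, at 2980 and 1670 CPM. Adhesive replicate 1, at 970 CPM, lay below adhesive replicates 3 and 4, at 1346 and 1095 CPM. Without adhesive replicate 1 of day 3 the rule kept 57 genes and without non-adhesive replicate 2 of day 3 it kept 63, and 32 of the 43 members were highest on day 3 in one or the other of these libraries. What sets these libraries apart was not tested.

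On day 3 no member was called between the adhesive and the non-adhesive implant. Of 42 members with enough counts to be tested, edgeR's quasi-likelihood test called 0, beside 0 of 14223 genes (0%). At an unadjusted p under 0.05 there was 1 member, beside 7.19% of genes, and DESeq2 called 74 genes (0.336%), none of them a member. The 1 member, at chr13:112004140-112005052, was at 3.94, 2.95, 5.40 and 9.30 CPM at the adhesive and 12.9, 11.04, 12.0 and 10.2 CPM at the non-adhesive implant. It was the only member without overlap of the implants on day 3, beside 3.74% of all genes tested, and its adjusted p in edgeR was 0.60 (log2 difference -1.05 ± 0.31, SE). Its day 14 levels overlapped, with 26.4 to 91.7 CPM at the adhesive and 20.5 to 85.9 CPM at the non-adhesive implant. For the named members the day 3 difference, adhesive against non-adhesive on the log2 scale, was 0.18 ± 0.59 for Phkg1, 0.66 ± 0.65 for Itgb1bp2, 0.01 ± 0.63 for Map2k6, 0.09 ± 1.01 for P2rx6 and -0.22 ± 1.22 for Adam11 (SE). Errors of that size leave room for differences of several-fold.

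On day 14, 1 of 43 members was called between the implants, beside 0.266% of the 13557 genes tested. ENSRNOG00000015904 (chr19:52313795-52332697, plus strand) was at 5.99, 10.6, 5.70 and 7.32 CPM at the adhesive and 32.0, 34.3, 25.4 and 12.6 CPM at the non-adhesive implant. All 4 adhesive libraries lay below all 4 non-adhesive libraries. The log2 difference was -1.59 ± 0.21 (SE; adjusted p = 0.035, edgeR), and it was -1.59 with an adjusted p of 1.61e-08 in DESeq2, which called 2.39% of genes and this 1 member. The adjusted p ranged from 0.0039 to 0.14 as each library was left out. The call was lost without replicate 1, 3 or 4 of the adhesive or replicate 1, 2 or 3 of the non-adhesive libraries, with the log2 difference still between -1.63 and -1.48. It was also lost with the replicate number as a block (adjusted p = 0.13, edgeR). On day 3 this gene was at 1.13 to 2.64 CPM at the adhesive and 1.91 to 3.66 CPM at the non-adhesive implant, and the change of the implant difference between the days was not called (-0.83 on the log2 scale, adjusted p = 1.00).

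A further 2 members had no overlap of the implants on day 14, which makes 3 of 43 beside 7.59% of genes tested. The member at chr18:26185259-26211445 (minus strand) was lower at the adhesive implant, at 55.7, 35.9, 32.3 and 40.0 CPM against 92.4, 76.1, 88.1 and 73.4 CPM (log2 difference -0.81 ± 0.26, SE, adjusted p = 0.19 in edgeR). The chromosome 10 member described beside Adam11 was higher at the adhesive implant (0.43 ± 0.21, adjusted p = 0.37). For the named members the day 14 difference was 0.04 ± 0.35 for Phkg1, 0.23 ± 0.39 for Itgb1bp2, 0.30 ± 0.31 for Map2k6, 0.03 ± 0.35 for P2rx6 and 0.00 ± 0.41 for Adam11. At an unadjusted p under 0.05 there were 3 members, beside 15.9% of genes. The median difference was 0.17 on the log2 scale over the members and -0.04 over all genes tested, with 29 members above and 14 below 0. Without scaling for composition, on raw CPM, 26 were above and 17 below.

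Replicate 4 of the non-adhesive implant stood out in the day 14 comparison. It was the highest of its group in 35 members, with a median of 1.59 times the mean of the other 3, and the lowest in 4. Such counts over all genes are not given here, so they do not show an order particular to the members. Without it, 40 members were above and 3 below 0, with a median of 0.51 over the members against -0.02 over all genes. At an unadjusted p under 0.05 there were then 24 members, 22 of them higher at the adhesive implant, beside 40.4% of genes. An adjusted p of 0.05 or less was reached by 11 members, beside 20.5% of genes, and with the fold limit 2 members were called, beside 8.32% of genes. One was the chromosome 19 member (-1.73 ± 0.18, adjusted p = 0.0039). The other, at chr12:39951987-39958239 (minus strand), was higher at the adhesive implant (1.40 ± 0.18, adjusted p = 0.0044), and with all 8 libraries it was not called (0.68 ± 0.46, adjusted p = 0.53). Its adhesive libraries were at 399, 331, 386 and 389 CPM and its non-adhesive libraries at 175, 194, 177 and 408 CPM. Among the named members, Itgb1bp2 missed only the fold limit (0.78 ± 0.17, adjusted p = 0.020). The others were at 0.35 ± 0.29 for Phkg1, 0.65 ± 0.21 for Map2k6, 0.49 ± 0.17 for P2rx6 and 0.59 ± 0.19 for Adam11, with adjusted p of 0.39, 0.058, 0.073 and 0.060. Members without overlap rose to 11 of 43 when replicate 4 was left out, beside 42.1% of genes.

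**Figure D4:**
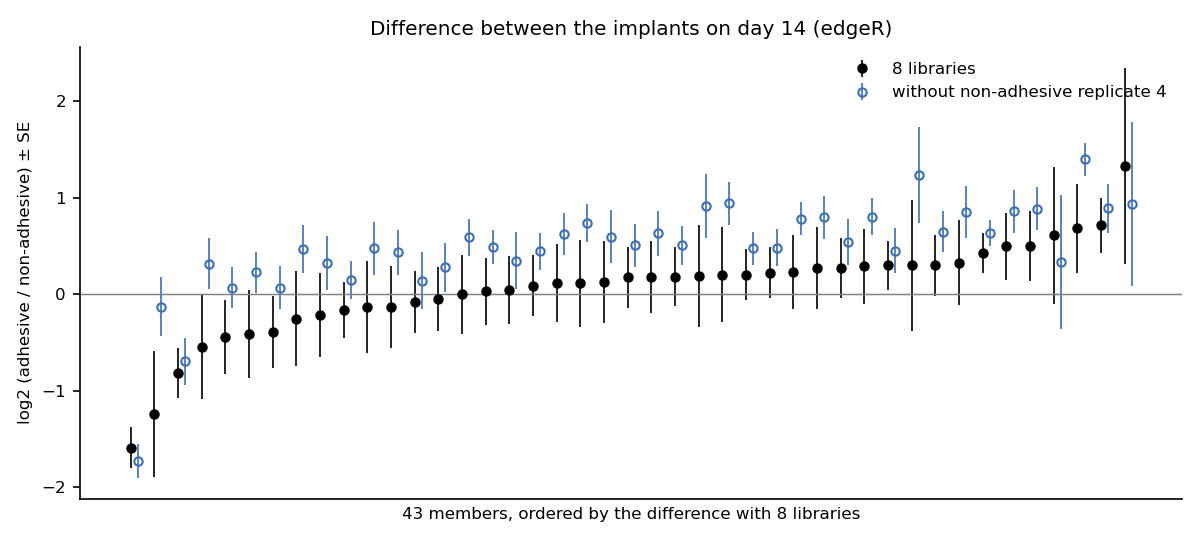
Difference between the implants on day 14 for each of the 43 members (y axis, log2 of adhesive over non-adhesive, edgeR; bars, SE), ordered along the x axis by the value with 8 libraries (filled) and shown again without non-adhesive replicate 4 (open, blue). With 8 libraries 29 members lie above 0, and without replicate 4 it is 40, while the leftmost member, on chromosome 19, stays near -1.6 to -1.7.

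For no member was a change of the implant difference between the days called. The term for the change of the implant effect, fitted over all 16 libraries, called 0 of 43 members beside 0.00685% of 14601 genes, that is 1 gene. At an unadjusted p under 0.05 there was 1 member, beside 4.74% of genes, and DESeq2 called 20 of 22926 genes and no member. The largest values were 1.57 on the log2 scale for the chromosome 15 member and 1.41 for the chromosome 2 member, both with an adjusted p of 1.00. Without replicate 4 the count of members was again 0, beside 0.0201% of genes. The median change over the members was then 0.55 against 0.02 over all genes, with 37 members above and 6 below 0. With all 16 libraries it was 0.03 against -0.01, with 23 members above and 20 below 0. At an unadjusted p under 0.05 there were 2 members without replicate 4, beside 13.7% of genes.

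The 4 members that were lowest in non-adhesive replicate 4 are the chromosome 18 and 19 members above and a pair with another pattern over the libraries, picked out after their values were seen. The member at chr4:98337367-98523473 (plus strand) was at 1.23 to 6.15 CPM on day 3. On day 14 it was at 10.6, 116, 48.9 and 30.9 CPM at the adhesive and 94.6, 23.2, 28.7 and 9.06 CPM at the non-adhesive implant. The libraries of each implant were thus far apart, with replicate 1 lowest at the adhesive and replicate 4 lowest at the non-adhesive implant. The member at chr6:138092131-138093643 (minus strand) had 10 counts in all 4 adhesive libraries of day 3 together and 11 counts in the non-adhesive ones, all 11 in replicate 1. On day 14 it had 1997 and 1003 counts, or 3.75, 102.7, 20.96 and 10.1 CPM at the adhesive and 24.5, 18.7, 18.8 and 0.450 CPM at the non-adhesive implant. Its 7 counts in replicate 4 of day 14 lay just above the highest day 3 value of 0.442 CPM. Too few counts kept it out of the day 3 test.

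Jchain, which encodes the chain that joins antibody molecules secreted by plasma cells, is given beside this pair. It was at 0.543 to 3.17 CPM on day 3. On day 14 it was at 1.73, 10.5, 7.56 and 5.44 CPM at the adhesive and 43.7, 6.46, 14.7 and 1.09 CPM at the non-adhesive implant. The order of the libraries within each implant group was that of the chromosome 4 member. Of 16 markers of B and plasma cells only Jchain and Fcrla could be found by symbol, and Fcrla had means of 0.783 to 1.69 CPM in the 4 groups. The part of such cells in these members was not tested. The muscle genes Eno3 and Mb, both left out of the rule by name, were highest in replicate 4 among the non-adhesive libraries of day 14. Eno3 was at 6294, 5498, 5994 and 9683 CPM there. Mb was at 2112, 3622, 2251 and 3852 CPM, so replicate 2 was close to replicate 4.

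**Figure D5:**
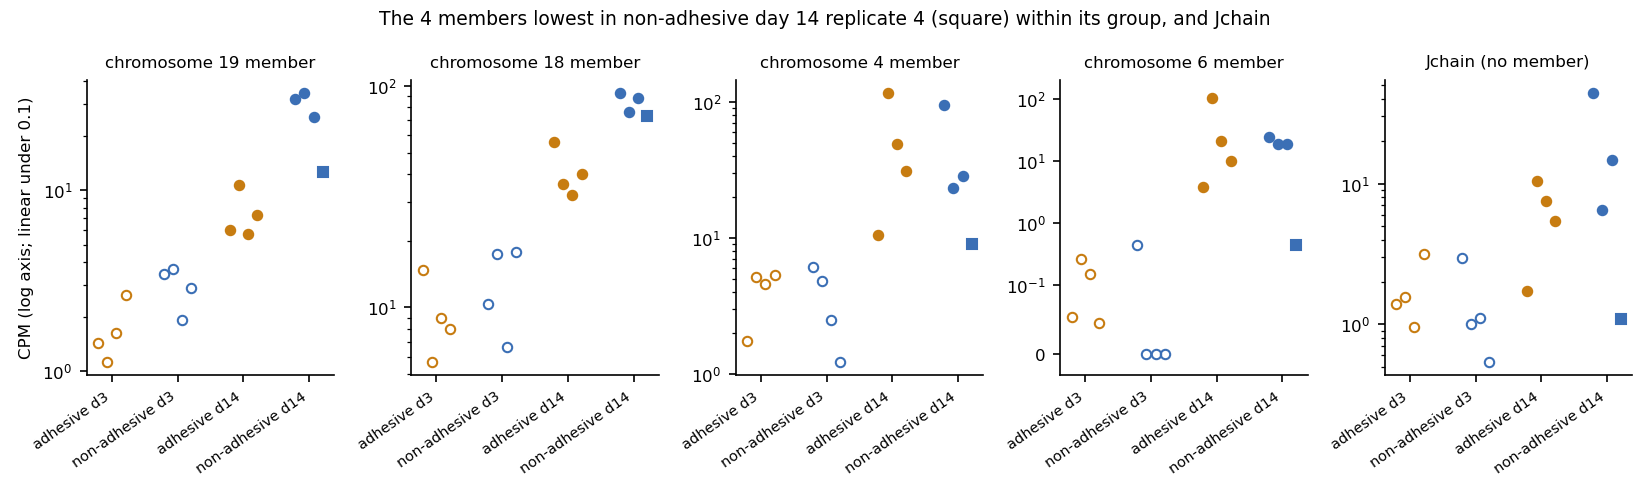
CPM (y axis, logarithmic; linear under 0.1 for the chromosome 6 member) in each library of the 4 groups (x axis; d3, day 3; d14, day 14) for the 4 members that were lowest in non-adhesive day 14 replicate 4 (square) and for Jchain, which is no member. The chromosome 19 and 18 members separate the implants on day 14, while the chromosome 4 and 6 members and Jchain are spread widely within the day 14 groups and lowest of all there in replicate 4 of the non-adhesive implant.

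Other genes of the same pathways were looked up in 18 lists of muscle, metabolic and cell type genes, and few could be found by symbol. Of 33 genes of glycolysis and glycogen, 3 had a symbol. The regulatory subunit gene Phka1 was called higher on day 14 at both implants (log2 change 2.14 ± 0.34, adjusted p = 0.0023, and 1.57 ± 0.33, adjusted p = 0.0073, edgeR), from means of 214 and 244 CPM to 631 and 515 CPM. It failed the rule because its mean rises were 2.95-fold and 2.11-fold. Pfkfb1, an enzyme that sets the level of a glycolysis activator, had mean ratios of 3.195 and 3.04 between the days and was not called (adjusted p = 0.061 and 0.062). Phkg1 was the only member with a symbol in any list, and members without a symbol could not be looked up.

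Muscle lists outside glycogen held few genes with a symbol, and those called between the days are given here. Over all 14601 genes tested, 4.39% were called higher and 3.73% lower on day 14 at the adhesive implant. At the non-adhesive implant it was 5.32% and 3.75%. None of 45 sarcomere genes had a symbol. Of 34 genes of excitation and calcium handling, 4 had one. Only Atp2a2, the calcium pump of slow and cardiac fibres, was called. At the adhesive implant it was higher on day 14 than on day 3 (log2 change 1.07 ± 0.34, adjusted p = 0.047, edgeR). Its change at the non-adhesive implant was 0.91 ± 0.34 (adjusted p = 0.078). Its mean CPM rose 1.44-fold at the adhesive and 1.32-fold at the non-adhesive implant. Cacnb1 and Cacng1, subunits of the muscle calcium channel, had changes of -0.37 and 0.51 at the adhesive and -0.88 and 0.06 at the non-adhesive implant, none of them called. Cacnb1 at the non-adhesive implant missed only the fold limit (adjusted p = 0.044). Of 40 mitochondrial genes, 4 had a symbol, and Mdh2, a citric acid cycle enzyme, was called higher at both implants (1.26 ± 0.32 and 1.33 ± 0.32), while Pdk2, Esrrg and Ppargc1a were not. Of 4 genes of muscle mass and proteolysis, 2 were called between the days at the non-adhesive implant. Fbxo40 was higher (1.16 ± 0.36) and Tnfrsf12a lower (-1.03 ± 0.26) on day 14 there. Myf5, a regulator of muscle stem cells, fell by 2.00 on the log2 scale at the non-adhesive implant (adjusted p = 0.0074) and had a change of -1.21 at the adhesive implant (adjusted p = 0.057).

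Among the cell type lists, Jchain was called higher on day 14 at both implants (2.37 ± 0.76 and 3.87 ± 0.80). Of 13 fibroblast and matrix genes, 1 was called between the days, Cthrc1, higher on day 14 at the non-adhesive implant (1.87 ± 0.60). Between the implants 1 was called, Fmod, a collagen-binding proteoglycan, lower at the adhesive implant on day 14 (-2.36 ± 0.34, adjusted p = 0.044). The median difference on day 14 was -1.38 over the 13 genes and -0.04 over all genes tested. All 13 were lowest in replicate 4 among the non-adhesive libraries of day 14. Col1a1 was at 4868, 4565, 3728 and 417 CPM there, and Cthrc1 at 112, 188, 157 and 12.5 CPM. Calls in this list are given only with that library included, so few calls do not show that the implants were alike. For none of the 46 list genes with a symbol was the change of the implant difference between the days called, so a call between the days at 1 implant alone does not show that the implants differed. No gene was called in the lists for complement (3 genes), endothelium (2), smooth muscle and pericytes (2), adipocytes (1) and clock output (2), and no gene had a symbol in the lists for macrophages, T and NK cells and mesothelium. Notch3 of the pericyte list missed only the fold limit between the days at both implants (0.69 ± 0.17 and 0.80 ± 0.17, adjusted p = 0.020 and 0.0083, edgeR). Rgs5 of that list and Cd55 of the complement list did so at the non-adhesive implant (0.91 ± 0.30 and 0.95 ± 0.27, adjusted p = 0.048 and 0.028). The members' lack of symbols means that the counts in the lists say nothing of what the 38 unnamed members do.

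The edge of the rule was crowded. The members just inside the 3-fold limit were Map2k6, whose smaller rise was 3.02-fold, Itgb1bp2 (3.13-fold) and the chromosome 9 member (3.17-fold). The genes just outside that met every other term were at chr3:148386189-148399501 (2.94-fold), chr4:176701983-176720012 (2.95-fold) and chr3:43255567-43359074 (2.95-fold). CPM by library total also lowers the rises, since the median log2 change of all genes at 5 CPM or more was -0.55 at the adhesive and -0.45 at the non-adhesive implant on that scale and 0.00 and 0.01 with TMM scaling. The members' median change was 2.35 and 2.56 on raw CPM and 2.73 and 2.65 with TMM scaling. With TMM-scaled CPM, 104 genes met the rule, all 43 members among them.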

How the data were processed

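Bulk RNA sequencing counts of 16 abdominal wall libraries, 4 for each implant and day, were used. Per the labels and the study's methods, RNA was enriched on oligo(dT) beads, prepared with NEBNext Ultra, and sequenced in pairs. Reads were demultiplexed with bcl2fastq 2.17, trimmed with Cutadapt, aligned with STAR and counted per gene with featureCounts. The authors deposited whole-number counts per gene, not normalized, with exon coordinates. The labels name GRCm38, a mouse build, and the methods a rat build, mRatBN7.2. The build of the files' coordinates could not be settled, and they are printed as the files give them. The series text also names day 17 and the extraction text day 10. Labels of day 3 and day 14 were used.

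Groups came from the label of each library. CPM was the count over the library total. Tests used edgeR 4.0.16 (R 4.3.3; filterByExpr, TMM, robust quasi-likelihood, Benjamini-Hochberg over all genes tested), calling genes with an adjusted p no higher than 0.05 and a log2 change of 1 or more. Implant differences were fitted on the 8 libraries of a day, and changes between days on all 16. TMM factors ran from 0.619 to 1.41. DESeq2 1.42.0, other scaling, no filter, the replicate number as a block and leaving out each library were tried. SDs on the log2 scale used CPM + 0.5. The edgeR script was tested on simulated data. Members and gene lists were chosen with earlier results of these data known. Named genes were to be those with a symbol of highest level, rise, spread or test rank, and with 5 symbols all were taken. Symbols of 1957 genes were matched through a shortened gene table of the study (2010 IDs) and the RefSeq table, and promoters came from RefSeq (GRCr8). Strand use in counting is not given in the sources used here. Results of the neutrophil and Schwann cell lists are not reported here.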

Additional observations from a re-analysis of the deposited data

Results flagged for a closer look

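Libraries apart from the other 3 of their group by Dixon's criterion were looked for in 18 members and in the members' summed share, over 4 groups each. Of 76 sets of 4 libraries, 13 were found. Chance gives about 1 in 20 for independent sets of normal values. These sets share libraries, and many genes were high in the same ones, so the count cannot be set against that share. Adhesive replicate 1 of day 3 accounts for 7 of them, all on the high side. In that library Phkg1 was at 71.1 CPM (22.3 to 28.5 CPM in the other 3), Adam11 at 28.7 CPM (1.52 to 3.23 CPM), Map2k6 at 19.4 CPM (5.05 to 6.71 CPM) and P2rx6 at 10.7 CPM (0.483 to 1.97 CPM). There the chromosome 7 member was at 415 CPM (86.7 to 127 CPM), and the chromosome 10 members beside Adam11 were at 14.1 CPM (0.269 to 1.61 CPM) and 12.1 CPM (0.492 to 0.908 CPM).

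Non-adhesive replicate 4 of day 14 was apart on the high side in 4 sets. P2rx6 was at 27.3 CPM (16.2 to 17.6 CPM in the other 3), the chromosome 12 member at 408 CPM (175 to 194 CPM), ENSRNOG00000017645 at 23255 CPM (11469 to 11908 CPM) and the members' summed share at 10.2% (5.40% to 6.08%). The 103-base member on chromosome 3 was at 9.38 CPM in adhesive replicate 1 of day 14 (4.95 to 5.69 CPM). The chromosome 6 member was at 0.442 CPM in non-adhesive replicate 1 of day 3 and had no counts in the other 3.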

How the results depend on the processing

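The count of members depended on the scaling and the fold limit: 104 genes met the rule with TMM scaling and 104 with DESeq2 size factors, 95 at 2-fold and 21 at 4-fold, and 38 to 63 when 1 library was left out. Between implants DESeq2 called 74 genes on day 3, 509 on day 14 and 20 for the change between days, against 0, 36 and 1 in edgeR. All 16 libraries in 1 fit gave 216 genes on day 14. Without a fold limit, 2174 and 2561 genes differed between days at the adhesive and non-adhesive implant. Leaving out 1 library gave 1 to 1151 genes and 0 to 2 members on day 14, 0 to 3 genes for the change between days, 462 to 1570 genes and 22 to 43 members between days at the adhesive, and 744 to 1740 genes at the non-adhesive implant. Whether replicate numbers pair libraries is not known. Same-numbered libraries did not all deviate together (correlations from -0.36 to 0.48). On day 14 adhesive replicates 2, 3 and 4 were closest to the non-adhesive library of the same number, and replicate 1 to non-adhesive replicate 4. On day 3 adhesive replicates 1, 2, 3 and 4 were closest to non-adhesive replicates 2, 1, 2 and 1. These correlations cannot settle a pairing, and the main fits treat the libraries as unpaired. With the number as a block, 0 genes and 0 members were called on day 14 (the chromosome 19 member at -1.59, adjusted p = 0.13) and 0 genes for the change between days.

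Small differences between implants changed sign. With the block these were Map2k6 (-0.10), P2rx6 (-0.27) and the chromosome 12 member (0.62) on day 3 and P2rx6 (0.25) for the change between days, on the log2 scale. On day 14 Adam11 turned to -0.00083 in DESeq2, -0.00014 without the filter and -0.0067 with DESeq2 size factors. With 1 library left out, day 3 values ran from -0.47 to 0.61 for Phkg1, -2.48 to 1.28 for Adam11, -0.82 to 0.48 for Map2k6, -1.52 to 0.72 for P2rx6 and -0.38 to 0.61 for the chromosome 12 member. Day 14 values ran from -0.21 to 0.35 for Phkg1, -0.20 to 0.59 for Adam11, -0.12 to 0.49 for P2rx6 and -0.068 to 1.24 for the chromosome 13 member. Changes of the implant difference between days ran from -0.57 to 0.54 for Phkg1, -1.04 to 0.18 for Itgb1bp2, -1.29 to 2.51 for Adam11, -0.18 to 1.13 for Map2k6, -0.69 to 1.56 for P2rx6 and -0.71 to 0.032 for the chromosome 18 member. The cause was not tested. Precision was limited by 4 libraries a group, most of all on day 3.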
